A study of Arabidopsis thaliana with 6 samples.

Results

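The genes described here form and break down glucosinolates, the sulfur-rich defence compounds of Arabidopsis thaliana and other Brassicales. A list of 44 loci was used, and a locus was measured where the annotation paired a probe set with that gene alone. By this rule 8 of the 44 genes were measured, each by 1 probe set, out of 13356 genes measured in this way on the whole array. The measured genes are AT2G25450, AOP3 (AT4G03050) and AOP1 (AT4G03070) of 9 side-chain loci, BCAT4 (AT3G19710) of 9 chain-elongation loci, UGT74B1 (AT1G24100) and AT2G31790 of 12 core-structure loci, and both listed transporters, GTR1 (AT3G47960) and GTR2 (AT5G62680). The annotation leaves AT2G25450 and AT2G31790 without a gene name, so they are called by locus, and their step is that of the list.

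The other 36 loci were not analysed here. They are AOP2 and the 5 FMO GS-OX genes of the side chain; MAM1, MAM3, IIL1, IPMI1, IPMI2, IMD1, IMD3 and BAT5 of chain elongation; and CYP79F1, CYP79F2, CYP79B2, CYP79B3, CYP83A1, CYP83B1, SUR1, SOT16, SOT17 and SOT18 of the core structure. The indole gene CYP81F2, the regulators MYB28, MYB29, MYB34, MYB51, MYB76 and OBP2, and TGG1, TGG2, ESP, ESM1 and PEN2 of breakdown complete them. No regulator or breakdown gene of the list was therefore measured.

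Glucosinolates are made from amino acids, chiefly methionine and tryptophan. Methionine is first lengthened by rounds of chain elongation, the amino acid is then turned into the shared glucosinolate core, and the side chain is last modified by oxygenases. Myrosinases split the finished compounds when tissue is damaged, and transporters move them between organs. The AOP loci, the MAM loci and the breakdown gene ESP are among the loci known for natural variation between Arabidopsis accessions in which products are made.

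Transcript levels were measured in whole 9-day-old seedlings on 6 Affymetrix ATH1 arrays, in 3 groups of 2 separate liquid cultures. The GR-bdl line carries pRPS5A-Myc-GR-bdl, a stabilised form of the Aux/IAA repressor BODENLOS fused to the steroid-binding domain of the glucocorticoid receptor. Its RPS5A promoter is known for activity in dividing cells, and the steroid dexamethasone (DEX) lets such a fusion enter the nucleus. The mp-B4149 line lacks normal function of MONOPTEROS, an auxin response factor, and its label names no transgene. One group was GR-bdl given 50 µM of the auxin IAA for 1 h without DEX, the next was GR-bdl given 10 µM DEX for 1 h and then 50 µM IAA for 1 h, and the last was mp given both in the same way. DEX in the mp cultures comes from their source labels and the design text, while the titles of the mp samples name IAA alone. All 6 cultures thus received IAA, and no culture without auxin was measured. The accession background of either line is not given in the labels, and line, accession and genotype cannot be told apart in the mp comparisons. Against GR-bdl without DEX, mp also differs in the DEX treatment. Against GR-bdl with DEX, it also differs in the GR-bdl protein that DEX releases. These differences cannot be separated from the line either, and no wild-type culture was measured. Plants without MONOPTEROS function are known to lack the root that forms in the embryo.

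The deposited values are linear gcRMA intensities, and all levels below are log2 of them unless an intensity is named. Array medians lay between 26.1 and 27.1 in intensity, and over all probe sets the median SD of a pair of replicate arrays was 0.07, 0.11 and 0.10 on the log2 scale in GR-bdl without DEX, GR-bdl with DEX and mp. A level under 4 is called the low end below, and 43.1 to 44.1% of each array's probe sets lay there. Differences were tested with limma over all 22746 probe sets, a call means a Benjamini-Hochberg adjusted p under 0.05, errors of differences are SE with 2 arrays per group, and errors of levels are SD with n = 2. The 2 comparisons of mp share the mp arrays, so their values are given side by side and do not count as separate evidence.

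In mp, the measured side-chain genes did not move together. AT2G25450 read high on all GR-bdl arrays and lay at the low end in mp, while AOP3 and AOP1 were higher in mp. AT2G25450 had an intensity of 2027 and 2081 on the arrays of GR-bdl without DEX, 2482 and 2296 with DEX, and 5.83 and 5.96 in mp. All 4 GR-bdl arrays were high and both mp arrays were low, with no overlap. On the log2 scale its level was 11.00 ± 0.03 without DEX, 11.22 ± 0.08 with DEX and 2.56 ± 0.02 in mp (SD, n = 2). The difference of mp was −8.45 ± 0.11 from GR-bdl without DEX (limma adjusted p = 1.03e-08) and −8.66 ± 0.11 from GR-bdl with DEX (limma adjusted p = 9.94e-09). The mp level is near background, so the size of the drop depends on how low intensities are treated, and with 16 added to each intensity it was −6.56 and −6.78. No probe set of the 22746 had a lower difference in either comparison, with or without the 16 added. A changed number of cells of a type, a changed RNA level per cell and a difference between accessions cannot be told apart in these whole-seedling samples. A difference between accessions may lie in the probed sequence or in the gene's expression. This holds here and for the genes below.

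AOP3, which encodes a 2-oxoglutarate-dependent dioxygenase that makes hydroxyalkyl glucosinolates, stood at 3.01 and 2.51 in GR-bdl without DEX, 2.87 and 3.14 with DEX, and 4.55 on each mp array. It lay at the low end in both GR-bdl groups and just above it in mp, with no overlap between mp and the rest. It was higher in mp by 1.79 ± 0.17 than in GR-bdl without DEX and by 1.55 ± 0.17 than with DEX (limma adjusted p = 7.44e-05 and 0.000181). With 16 added to each intensity these were 0.79 and 0.71, still called. AOP1, of the same gene cluster, stood at 4.05 and 4.61 in GR-bdl without DEX, 4.27 and 4.26 with DEX, and 5.73 and 5.74 in mp. Again both mp arrays lay above all 4 GR-bdl arrays. The differences were 1.41 ± 0.17 and 1.47 ± 0.17 (limma adjusted p = 0.000281 and 0.000222), or 0.93 and 0.98 with 16 added. AOP3 and AOP1 lie close together on chromosome 4 in the RefSeq annotation of the Columbia genome (TAIR10.1), with 3 annotated genes between them, none of them coding for a protein. AOP2, listed there as a transcribed pseudogene, is among these 3 genes.

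**Figure D1:**
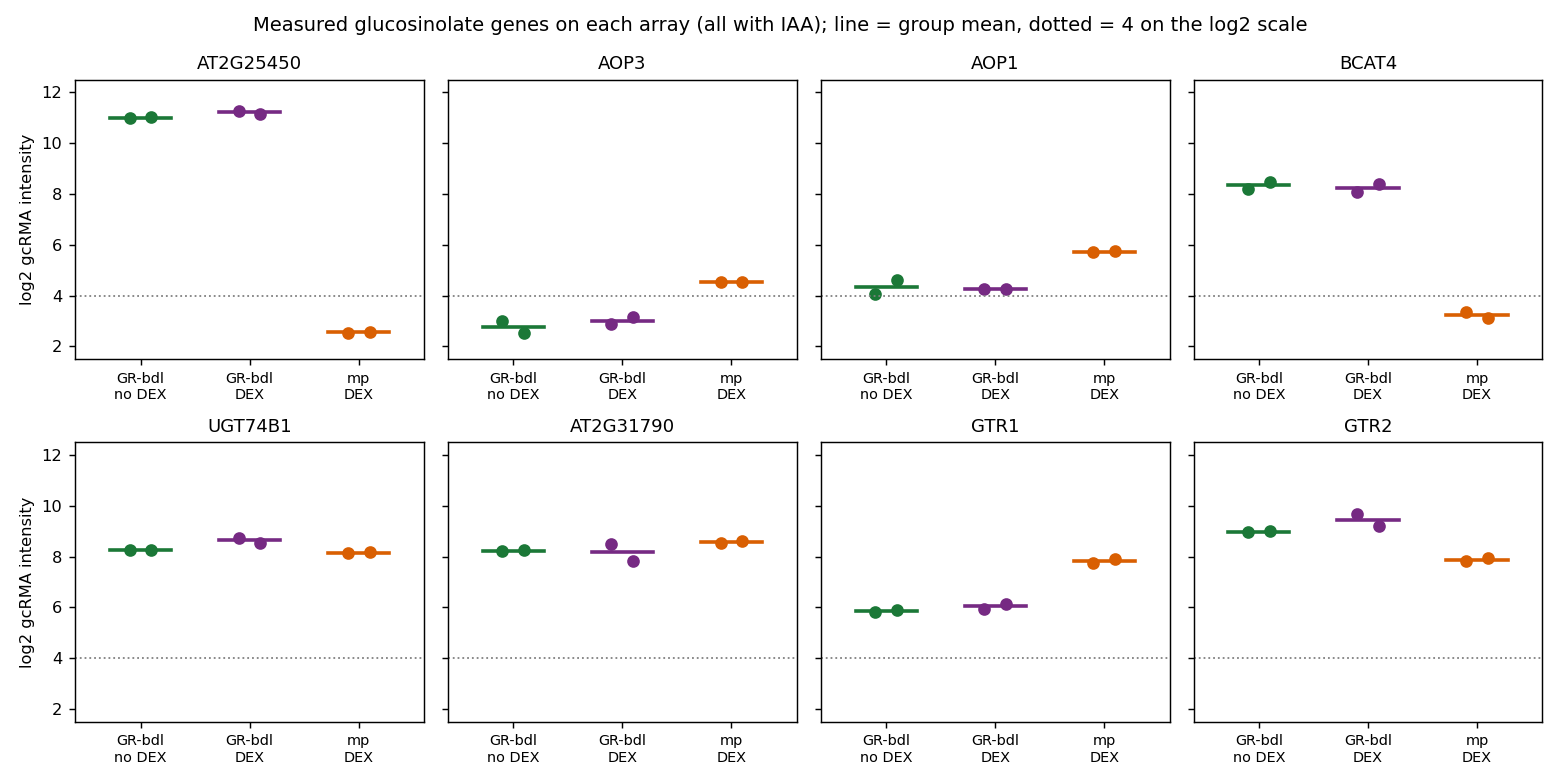
Level of each of the 8 measured glucosinolate genes on each array (y axis, log2 gcRMA intensity), with 1 panel per gene, 2 points per group, a line at the group mean and a dotted line at 4. AT2G25450 and BCAT4 lie under 4 in mp and above 8 on every GR-bdl array, whereas AOP3, AOP1 and GTR1 are higher in mp.

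BCAT4, the methionine aminotransferase that opens chain elongation, was the other gene that dropped to the low end. Its level was 8.21 and 8.48 in GR-bdl without DEX, 8.07 and 8.39 with DEX, and 3.37 and 3.12 in mp, and the GR-bdl and mp arrays did not overlap. In intensity, the GR-bdl arrays lay between 268 and 356, and the mp arrays at 10.3 and 8.67. BCAT4 differed by −5.10 ± 0.16 from GR-bdl without DEX and by −4.98 ± 0.16 from GR-bdl with DEX (limma adjusted p = 1.1e-07 and 1.15e-07). Here too the mp level is near background, and with 16 added to each intensity the differences were −3.74 and −3.63. Of the 22746 probe sets, 104 had a lower difference than BCAT4 in the comparison with GR-bdl without DEX, or 117 with 16 added.

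The 2 measured genes of the core structure changed far less. UGT74B1, an S-glucosyltransferase that adds the sugar to the core, stood at 8.25 and 8.26 in GR-bdl without DEX, 8.73 and 8.55 with DEX, and 8.13 and 8.19 in mp. All 6 arrays lay within a narrow range, with the DEX-treated GR-bdl arrays highest. Against GR-bdl without DEX the difference in mp was −0.09 ± 0.11, with a 95% interval from −0.35 to 0.17 and no call (limma adjusted p = 0.531). Against GR-bdl with DEX, UGT74B1 fell by 0.48 ± 0.11 (limma adjusted p = 0.00987), the smallest of the called differences among the 8 genes. AT2G31790 stood at 8.23 and 8.25 in GR-bdl without DEX, 8.50 and 7.85 with DEX, and 8.54 and 8.62 in mp. The DEX-treated arrays of this gene lay far apart, below and above the untreated ones. Its differences in mp were 0.34 ± 0.19 (95% interval −0.11 to 0.79) and 0.41 ± 0.19 (−0.04 to 0.85), and neither was called (limma adjusted p = 0.194 and 0.136). Without GR-bdl with DEX array 1, the second of these was 0.73 and was called (limma adjusted p = 0.00393), whereas without array 2 of that group it was 0.08 (limma adjusted p = 0.671). The first kept its value of 0.34 and was called (limma adjusted p = 0.0334) without either GR-bdl with DEX array, which enter that comparison only through the shared estimate of the spread.

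The 2 transporters moved in opposite directions. GTR1 and GTR2 are plasma membrane importers known to act together in moving glucosinolates into the phloem. GTR1 stood at 5.82 and 5.91 in GR-bdl without DEX, 5.94 and 6.15 with DEX, and 7.77 and 7.90 in mp, so that both mp arrays lay above all others. It was higher in mp by 1.97 ± 0.12 and 1.80 ± 0.12 (limma adjusted p = 5.04e-06 and 8.64e-06), a 3.93-fold and a 3.47-fold difference. GTR2 stood at 8.96 and 9.01 in GR-bdl without DEX, 9.67 and 9.22 with DEX, and 7.82 and 7.94 in mp, the lowest group with no overlap. Its differences in mp were −1.11 ± 0.16 and −1.56 ± 0.16 (limma adjusted p = 0.000636 and 8.79e-05). Both directions held under every setting tried for these genes.

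**Figure D2:**
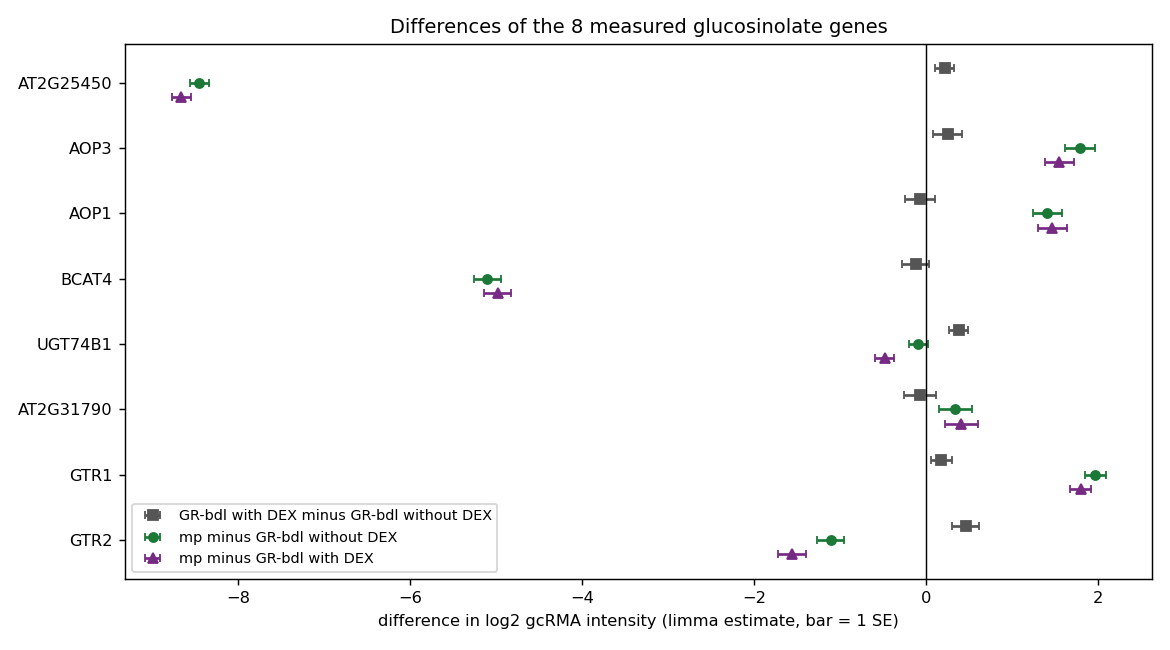
Difference in log2 gcRMA intensity of the 8 genes (x axis) in the 3 comparisons, with bars of 1 SE from limma and 2 arrays per group. The differences between GR-bdl with and without DEX run from −0.12 to 0.46, while those of mp run from −8.66 to 1.97.

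Over the 8 genes, 3 were called higher and 3 lower in mp than in GR-bdl without DEX, where 41.5% of all probe sets were called (23.9% higher, 17.5% lower). Against GR-bdl with DEX, 3 were higher and 4 lower, where 40.1% of all probe sets were called (22.1% higher, 18.0% lower). The median size of the difference was 1.60 and 1.56 for the 8 genes and 0.30 and 0.28 for all probe sets, while the median signed difference was 0.12 and −0.04 for the genes and 0.12 and 0.07 for all probe sets. The genes were chosen with results of these data known, so these counts describe them and test nothing about the pathway. A call that also needed a size of at least 1 was met by 6 of the 8 genes in each mp comparison, against 15.4% and 15.3% of all probe sets. The arrays did not overlap for any of the 8 genes in either mp comparison, whether called or not. Absence of overlap therefore does not set the called genes apart, and its share over all probe sets was not computed. With each array centred on its hybridization controls, UGT74B1 was also called lower against GR-bdl without DEX (−0.43, limma adjusted p = 0.0284). That centring shifted the overall median from 0.12 to −0.22 in this comparison, and no other gene of the 8 changed its call or direction under it.

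**Figure D3:**
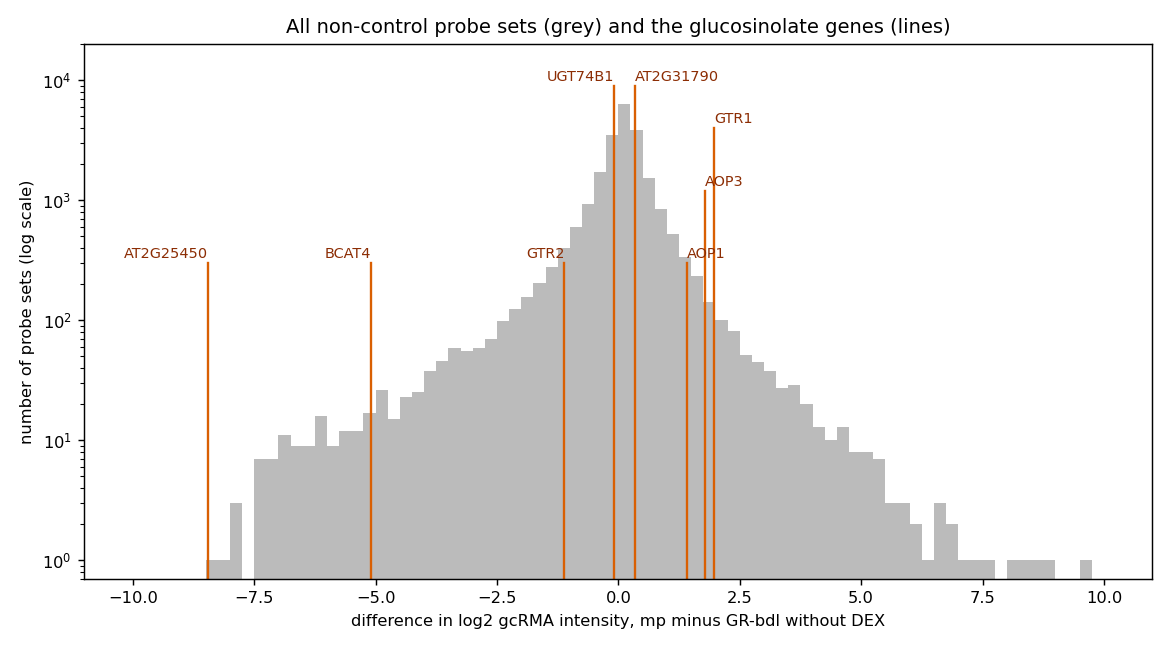
Distribution of the difference between mp and GR-bdl without DEX (x axis, log2 gcRMA intensity) over all 22746 probe sets, as grey bars with the number of probe sets on a log axis, and the 8 glucosinolate genes as labelled lines whose height carries no value. AT2G25450 marks the lower end of the distribution at −8.45, and UGT74B1 and AT2G31790 lie near its middle.

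Release of GR-bdl by DEX before auxin was the question of the remaining comparison. None of the 8 genes was called in either direction by limma, where 2.27% of all probe sets were called (0.637% higher, 1.64% lower) and 1.15% with a size of at least 1. An unadjusted p under 0.05 was reached by 2 of the 8 and by 12.4% of all probe sets. These 2 were UGT74B1, at 0.38 ± 0.11 with a 95% interval from 0.12 to 0.64 (limma adjusted p = 0.184), and GTR2, at 0.46 ± 0.16 with an interval from 0.10 to 0.82 (limma adjusted p = 0.259). Both differences have the sign of a higher level with DEX. AT2G25450 differed by 0.22 ± 0.11 (−0.03 to 0.46), AOP3 by 0.25 ± 0.17 (−0.15 to 0.65) and GTR1 by 0.18 ± 0.12 (−0.10 to 0.46). AOP1, BCAT4 and AT2G31790 differed by −0.07 ± 0.17 (−0.46 to 0.33), −0.12 ± 0.16 (−0.48 to 0.24) and −0.07 ± 0.19 (−0.51 to 0.38). The intervals of all 8 genes exclude a difference of 1 on the log2 scale in either direction. The median size of the difference was 0.20 for the 8 genes and 0.12 for all probe sets.

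Further genes around the pathway came from 4 wider lists, on which 7 of 69 genes were measured. In mp, 3 of the 7 were higher than in GR-bdl without DEX and none lower, and 4 were higher than in GR-bdl with DEX and none lower by limma. Over all probe sets, 23.9% were higher and 17.5% lower in the first comparison, and 22.1% and 18.0% in the second. Of the 7, 4 and 6 had an unadjusted p under 0.05 (49.8% and 47.4% of all probe sets). AT1G04770, on the list of other regulators and without a gene name in the annotation, stood at 7.95 and 7.65 in GR-bdl without DEX, 7.82 and 7.33 with DEX, and 10.35 and 10.19 in mp. Both mp arrays lay above all GR-bdl arrays, by 2.47 ± 0.18 and 2.69 ± 0.18 in the 2 comparisons (limma adjusted p = 1.39e-05 and 8.17e-06). APS3, an ATP sulfurylase that activates sulfate, was higher in mp by 2.03 ± 0.13 and 2.28 ± 0.13 (limma adjusted p = 5.97e-06 and 3.04e-06).

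BGLU28, a beta-glucosidase, lay at the low end on every array, from 1.68 to 3.65, and was higher in mp by 1.46 ± 0.24 and 1.37 ± 0.24 (limma adjusted p = 0.00163 and 0.00239). With 16 added to each intensity these were 0.40 and 0.38, of which the second lost its call (limma adjusted p = 0.0518). MYC4, a bHLH factor that acts with the MYB regulators of the pathway, differed by −0.06 ± 0.22 from GR-bdl without DEX and was called higher than with DEX (0.65 ± 0.22, limma adjusted p = 0.043). GR-bdl with DEX array 2 stood at 3.58 beside 4.35 on array 1, and the call was lost without any array other than GR-bdl with DEX array 1. MYC3 (−0.09 ± 0.16 and −0.38 ± 0.16) and GSTU20, a glutathione transferase placed at the conjugation step (0.23 ± 0.12 and 0.15 ± 0.12), were not called. Against GR-bdl with DEX, MYC3 was called lower with hybridization-control centring (−0.65, limma adjusted p = 0.00592) and without GR-bdl with DEX array 2 (−0.56, limma adjusted p = 0.0331), and was −0.20 without array 1. GSTU20 ran there from 0.01 without GR-bdl with DEX array 2 to 0.29 without array 1, with no call. No gene of the 17 on the indole list was measured. In the DEX comparison none of the 7 was called by limma, and only MYC4 had an unadjusted p under 0.05 (−0.71 ± 0.22, limma adjusted p = 0.201), with a call at −1.09 without GR-bdl with DEX array 1.

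**Figure D4:**
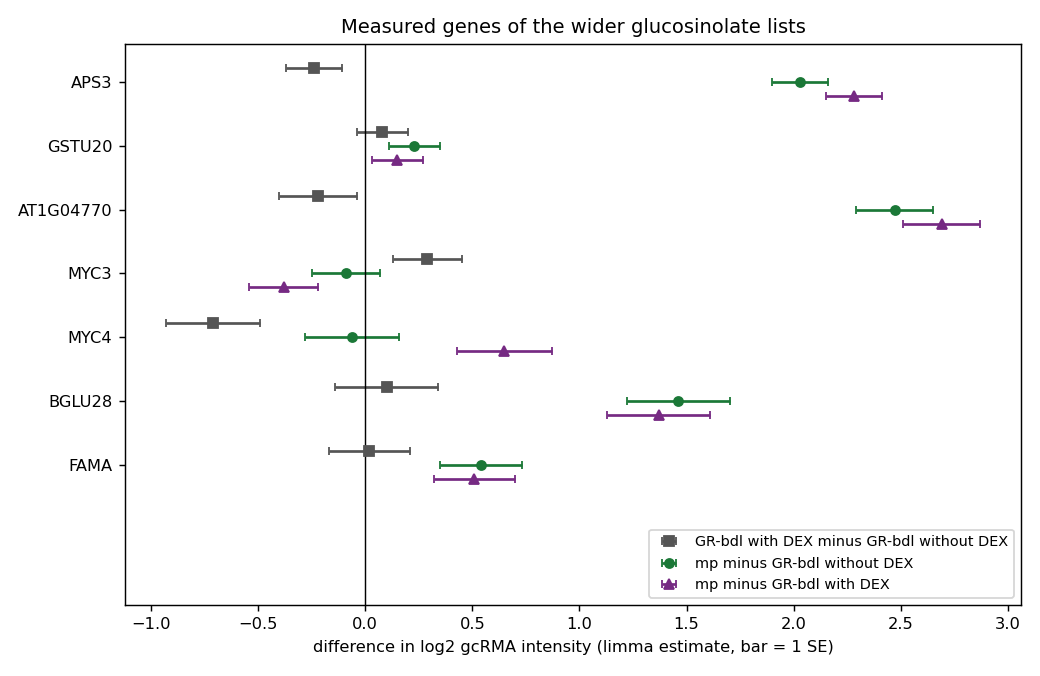
Difference in log2 gcRMA intensity (x axis) of the 7 measured genes of the wider glucosinolate lists in the 3 comparisons, with bars of 1 SE from limma and 2 arrays per group. APS3, AT1G04770 and BGLU28 are higher in mp against both GR-bdl groups, and GSTU20 lies near 0 throughout.

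Some of the measured markers of root tissue were lower in mp, but not all. Of 26 root markers 4 were measured, and EXPA7 (−3.80 ± 0.22), EXPA18 (−2.89 ± 0.25) and JKD (−1.52 ± 0.18) fell against GR-bdl without DEX, all to the low end, while PYK10 was not called (0.10 ± 0.11, limma adjusted p = 0.47). These are 3 lower calls of 4, where 17.5% of all probe sets were called lower. Against GR-bdl with DEX, where 18.0% were, the differences were −3.29 ± 0.22 for EXPA7, −2.98 ± 0.25 for EXPA18 and −0.72 ± 0.18 for JKD (limma adjusted p = 0.0136 for JKD). That call of JKD was lost with 16 added to each intensity (limma adjusted p = 0.128), without GR-bdl with DEX array 2 (0.085) and without mp array 2 (0.0652). The summed intensity of the 4 genes, which is nearly all PYK10, was 9501 to 9813 in GR-bdl without DEX, 9390 to 9893 with DEX and 9780 to 10415 in mp. Without PYK10 it was 279 to 320, 188 to 307 and 34.4 to 34.8. In the DEX comparison none of the 4 was called by limma, where 2.27% of all probe sets were called. EXPA7 and JKD had an unadjusted p under 0.05, as did 12.4% of all probe sets. The arrays of EXPA7 overlapped there, and JKD differed by −0.80 ± 0.18 (limma adjusted p = 0.0756). Of 19 shoot markers 4 were measured, with a sum of 37418 to 37576, 37249 to 38945 and 34947 to 36659. Only SBPASE was called against GR-bdl without DEX (0.31 ± 0.11, limma adjusted p = 0.0451), where 41.5% of all probe sets were called, 23.9% higher. That call of SBPASE was lost under several other settings. Against GR-bdl with DEX none of the 4 shoot markers was called, where 40.1% of all probe sets were. FAMA, a factor of guard cells and myrosin cells and the only measured gene of 3 on that list, differed by 0.54 ± 0.19 and 0.51 ± 0.19 without a call (limma adjusted p = 0.0516 and 0.0618). The second value was 0.81 without GR-bdl with DEX array 1, with a call (limma adjusted p = 0.00587), and 0.22 without array 2 (0.309). Both FAMA differences were called after a repeated quantile normalization (limma adjusted p = 0.0343 and 0.0395) and with eBayes trend and robust (0.0394 and 0.0488), and the first also with the 4 arrays of its comparison alone (0.0117).

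One sign of RNA quality and the hybridization controls also moved with mp. The poly-A controls moved in every comparison, including the one without mp. The ubiquitin 3′ minus 5′ probe set difference was 0.73 on both mp arrays and 0.48 to 0.55 on the 4 GR-bdl arrays. The same measure overlapped between mp and GR-bdl for actin (−0.04 and 0.17 in mp, 0 to 0.10 in GR-bdl) and GAPDH (0.41 and 0.33 in mp, 0.32 to 0.43 in GR-bdl). The median difference of the poly-A controls was 0.615 for mp against GR-bdl without DEX, 0.187 against GR-bdl with DEX and 0.365 in the DEX comparison. The hybridization controls gave 0.33, 0.24 and 0.05 in the same order. The part of the tissue markers, of RNA quality and of the poly-A controls in the glucosinolate results was not tested.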

How the data were processed

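Total RNA of 6 seedling cultures was hybridised to ATH1 arrays, 1 array each. The deposited intensity values are on a linear scale, 1 column per array, and the authors made them with gcRMA, per the submitters' processing notes, which name no version. Each group was taken from the sample's source label and the design text, since the treatment text gives DEX to all samples, and titles of mp samples leave it out. Without 64 control probe sets, 22746 remained. Of these, 13513 were paired with 1 gene, 503 with several and 8730 with none, and 13436 of the first kind matched a RefSeq locus (TAIR10.1). The log2 of each intensity was fitted with limma 3.58.1 in R 4.3.3, with 1 mean per group, all 6 arrays in 1 fit, no pseudocount and no filter. The fit had 3 residual and 5.12 prior degrees of freedom. Precision is limited by the number of arrays. The fit was tested on simulated data with normal noise for mp against GR-bdl without DEX, over 22746 probe sets. It called 20% of 50 probe sets changed by 0.5 on the log2 scale, 100% of 100 changed by 1 and 100% of 50 changed by 2. There were 14 false calls. For the DEX comparison the shares were 34%, 99% and 100%. Each simulation was drawn 1 time. Fewer probe sets were changed in the simulations than the 517 called in the DEX comparison, and far fewer than were called in mp. The Benjamini-Hochberg cutoff depends on the number of changed probe sets, so these shares do not give the power of the mp comparisons or of the DEX comparison.

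The members and lists were chosen with earlier results of these data known. All measured members were to be named, with values on every array for those called with a difference of at least 1, and up to 4 called genes of each wider list and 3 of each marker list by smallest p. The remaining members, genes not called on the wider lists, PYK10 and FAMA were given beyond that rule. Other settings were quantile normalization once more, centring on array medians or on 18 hybridization controls, a pseudocount of 16, a minimum mean of 4, a size minimum of 1, the replicate block, eBayes with trend and robust, the 4 arrays of a comparison alone, and leaving out each array. Figures were drawn in Python 3.11.15 with matplotlib 3.10.9.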

Additional observations from a re-analysis of the deposited data

How the results depend on the processing

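Each called difference of the 8 glucosinolate genes in the mp comparisons kept its direction and its call under each setting that gave it a value, except UGT74B1 against GR-bdl with DEX, which missed the size minimum of 1. AOP3 had no value under the minimum mean of 4; a mean over probe sets was not run, as each gene had 1. Leaving out each array gave −8.46 to −8.43 and −8.72 to −8.61 for AT2G25450, and −5.24 to −4.97 and −5.14 to −4.82 for BCAT4. In the DEX comparison, where no gene was called under any setting, leaving out an array turned the sign of AOP1 (−0.35 to 0.21), AOP3 (−0.00335 to 0.50), BCAT4 (−0.28 to 0.04) and AT2G31790 (−0.39 to 0.26). On the wider lists, the genes higher in mp than in GR-bdl with DEX numbered 4, but 2 with a pseudocount of 16; the number lower was 0, but 1 (MYC3) with hybridization-control centring and 0 to 1 when arrays were left out, as in the DEX comparison (MYC4). MYC3 ran from −0.20 to 0.02 against GR-bdl without DEX in the same way. Centring on the hybridization controls turned GSTU20 to −0.11 and −0.12, PYK10 to −0.23 and −0.17, and SBPASE to −0.02; it lowers every difference of a comparison alike. It moved the higher share of calls over all probe sets from 57.7 to 25.7% and from 55.2 to 29.7% in the mp comparisons. SBPASE also lost its call after a repeated quantile normalization (limma adjusted p = 0.0671) and under the size minimum of 1. Leaving out each array gave 0.28 to 0.34 for SBPASE against GR-bdl without DEX. Over all probe sets, the DEX comparison gave 145 higher and 372 lower, but 41 and 190 with a pseudocount of 16, 33 and 229 with the size minimum, and 24 to 105 and 216 to 332 when an array was left out. The size minimum gave 1712 and 1784 in place of 5441 and 3989 for mp against GR-bdl without DEX, and 1735 and 1735 in place of 5031 and 4083 against GR-bdl with DEX.

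The replicate numbers are not known to pair cultures, and the deviations of arrays with the same number correlated at −0.0303, 0.0981 and −0.0397 between the groups. With the replicate block, the 8 genes gave 3 higher and 3 lower calls for mp against GR-bdl without DEX, 3 and 4 against GR-bdl with DEX, and 0 and 0 in the DEX comparison. FAMA was then called in both mp comparisons (limma adjusted p = 0.0284 and 0.0341), as under some other settings, and SBPASE was not (0.0666). Levels under 4, near background, limit the sizes given for AT2G25450, BCAT4 and AOP3.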
